A study of Mus musculus with 2 samples.

Results

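The 9 genes described here are those of the red blood cell lineage that were followed in ureter explants treated with the WNT activator BIO: the embryonic globin genes Hba-x, Hbb-y and Hbb-bh1, the later globin genes Hba-a1 and Hbb-b1, and Alas2, Klf1, Slc4a1 and Epor. They were chosen by name, with earlier results of these data known, so comparisons of their counts with all genes are descriptive. Every biological probe that carried one of these names on the array was taken, which gave 10 probes for the 9 genes, out of 39429 probes and 29913 gene names. Each gene had 1 probe except Hbb-y, which had 2. All 10 probes were well above background in the control and in the BIO channel of both arrays, so none of the 9 genes was lost to the filter on dim probes. The ureters came from wildtype NMRI mouse embryos (an outbred stock) at E12.5 whose sex had not been determined, and had been cultured for 18 h on transwell membranes. One group received 10 µM BIO (6-bromoindirubin-3-oxime, an inhibitor of the kinase GSK3 that stabilizes β-catenin). The control group received only the solvent, DMSO, diluted 2:1000. There were 2 arrays, each with control RNA in one dye and BIO RNA in the other. In replicate 1 the control RNA carried AlexaFluor555 and the BIO RNA AlexaFluor647, and in replicate 2 the dyes were exchanged. According to the study's methods each RNA came from a pool of ureters, so embryos were not measured singly. An explant is cut off from the circulation of the embryo.

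Red cells are filled with hemoglobin, a tetramer of α-like and β-like globin chains that each hold a heme group. In the mouse the first red cells arise in the yolk sac, circulate with their nuclei for several days and carry embryonic globins, though not these alone. The fetal liver then releases red cells that carry the later α and β chains. The transcription factors GATA1 and KLF1 and signaling through the erythropoietin receptor drive this maturation, in which the globin genes, the heme pathway and the membrane proteins of the red cell are switched on together.

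The sequences of 3 globin probes are shown because the contrast between embryonic and later globins depends on whether probes tell related genes apart. They are given 5′ to 3′ in lower case, with positions of the file headers' build mm9, and no base is marked. In each of them 1 of the 3 reading frames was free of stop codons over the whole 60 bases.
Hba-x (chr11:32177668-32177727, + strand): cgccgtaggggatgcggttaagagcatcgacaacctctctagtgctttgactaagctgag
Hbb-y (chr7:111000448-111000507, - strand): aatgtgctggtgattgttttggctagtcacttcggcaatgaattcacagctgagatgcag
Hba-a1 (chr11:32183955-32184014, + strand): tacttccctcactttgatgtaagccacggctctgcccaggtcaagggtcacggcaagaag
Among the probes of Hba-x, Hba-a1, Hba-a2, Hbb-y, Hbb-bh1, Hbb-b1, Hbb-b2 and Hbb-bt, the longest run of bases shared between probes of different genes was 8. This cannot show that the probes tell the genes apart, because probes can lie at different places in related genes. Those of Hba-a1 and Hba-a2 shared only 6 bases. Whether a probe also binds the transcript of a related gene was not tested. The Hbb-b1 probe did share a run of 46 bases with the start of Hbb-bs, an adult β-globin gene that has no probe of its own name here. Its value may therefore be that of Hbb-bs and cannot be assigned to Hbb-b1, which holds wherever Hbb-b1 is named below. Either gene counts as a later globin. Hba-a1 and Hba-a2 are near-identical copies, and which of them a value belongs to is uncertain.

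Lower signal was found with BIO for 5 of the 9 genes, namely Hbb-y, Hba-a1, Hbb-b1, Slc4a1 and Epor, and higher signal for 0. At an unadjusted p below 0.05, 8 of the 9 genes were lower and 0 higher, against 21.5% lower and 15.2% higher of all genes. A gene was called as changed when the 2 log2 ratios of its brightest probe differed from 0 with an adjusted p below 0.05 (limma, two-sided, Benjamini-Hochberg over all 28824 probes tested). By the same call 14.8% of all genes tested fell and 9.14% rose. The median log2 ratio of BIO over control was -0.57 over the 9 genes and -0.01 over all genes tested. With median centering in place of loess these medians were -0.33 and -0.04. All but Klf1, that is 8 of 9, were lower on both arrays, compared with 38.1% of all genes. The decreases of the called genes left between 56.4% and 67.2% of the control level. With 2 arrays and 1 residual degree of freedom per probe the estimate of the spread is imprecise. To it the test adds a spread pooled over all probes tested, with 7.14 degrees of freedom and an SD of 0.16. For Hbb-y the SD of its own 2 ratios was 0.58, and its call depends on this pooling. The p-values cover no spread beyond these 2 arrays, and a count of calls is approximate. The calls of Hbb-y and Hba-a1 were lost with median centering in place of loess, those of Hbb-y and Slc4a1 with a smaller offset or no filter on dim probes, that of Slc4a1 with the processed signals, and all 5 with the deposited score table. In bulk tissue, fewer cells of a type and less RNA per cell cannot be told apart.

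**Figure D1:**
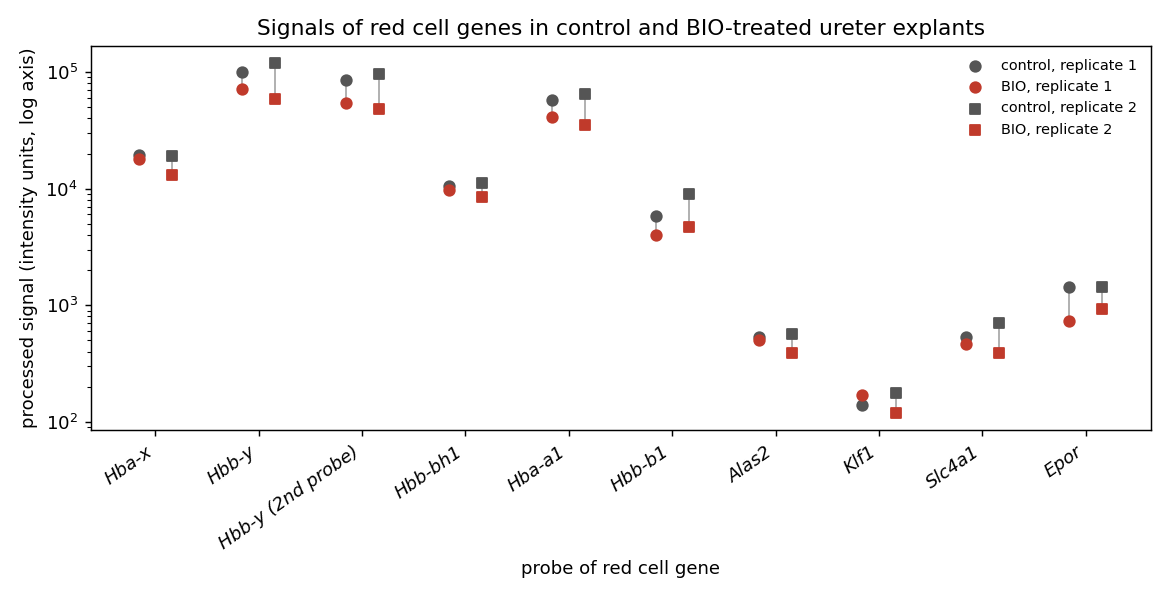
Processed signal (intensity units, log axis) of the 10 probes in control (grey) and BIO (red) RNA, with circles for replicate 1, squares for replicate 2 and a line joining the 2 channels of an array. The BIO point lies below the control point on both arrays for every probe except that of Klf1, which was 139 in control and 169 in BIO RNA of replicate 1. Heights of different probes are not comparable.

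Among the embryonic globins, Hba-x encodes ζ, an α-like chain of the first red cells. Its processed signal, the intensity after Agilent's background and dye correction, was 19308 in control and 17889 in BIO RNA of replicate 1, and 19154 in control and 13206 in BIO RNA of replicate 2. Both BIO values lay below both control values. Signals were not scaled between the arrays, and the share of all genes whose groups lie apart was not counted. Such statements, here and below, are therefore descriptive, and the test used the ratio within each array. The log2 ratio after loess normalization, which is the scale of all ratios below, came to -0.22 on the first array and -0.53 on the second. The mean of -0.37 ± 0.12 (moderated SE, n = 2 arrays) did not pass the test (adjusted p = 0.0587, limma). Every SE and interval given here is limma's moderated one, which draws on the spread pooled over all probes tested. Where the 2 arrays differ much, as for Hbb-y, it is smaller than those arrays alone would give. Hbb-y encodes εy, a β-like chain of embryonic red cells. The brighter of its 2 probes gave 99649 in control and 71229 in BIO RNA of replicate 1, and 118610 and 59262 in replicate 2. Control and BIO values did not overlap, and the gap was wider in replicate 2. On the log2 scale the ratios were -0.20 and -1.02, and the mean of -0.61 ± 0.18 (SE) was called as a decrease (adjusted p = 0.0427, limma). The other Hbb-y probe, the one printed above, gave 85285 and 54769 in replicate 1 and 96222 and 48495 in replicate 2, again without overlap. Its log2 ratios were -0.42 and -1.02, with a mean of -0.72 ± 0.15 (SE, adjusted p = 0.0112, limma). For the brighter Hbb-y probe the log2 ratio of processed signals in replicate 1 was -0.52, compared with -0.20 after loess.

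Hbb-bh1 encodes βH1, another β-like chain of the yolk sac lineage. Its processed signal was 10505 in control and 9683 in BIO RNA of replicate 1, and 11177 and 8512 in replicate 2. The 2 groups did not overlap, though the replicate 1 values lay close together. Its log2 ratios were -0.18 and -0.40, with a mean of -0.29 ± 0.11 (SE) that missed the threshold (adjusted p = 0.109, limma).

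Of the later globins, Hba-a1 encodes the α chain that fetal and adult red cells use. Its signal was 58098 in control and 40988 in BIO RNA of replicate 1, and 64486 and 35146 in replicate 2. Both BIO values lay well below both control values. With log2 ratios of -0.39 and -0.91, the mean of -0.65 ± 0.14 (SE) was called as a decrease (adjusted p = 0.0127, limma). Hbb-b1 encodes an adult β chain. Its signal was 5829 in control and 4004 in BIO RNA of replicate 1, and 9076 and 4700 in replicate 2. The groups did not overlap, and the 2 control values differed from each other more than the 2 BIO values did. Log2 ratios of -0.60 and -0.94 gave a mean of -0.77 ± 0.12 (SE, adjusted p = 0.00318, limma), which left 58.6% of the control level. It was the most decreased of the 5 globin genes, with the reservation about Hbb-bs given above.

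The other adult globin genes on the array were read for comparison. Hba-a2 gave -0.38 and -0.92 on the 2 arrays (mean -0.65, adjusted p = 0.0135, limma), close to the values of its copy Hba-a1. Hbb-bt, an adult β-globin gene, gave -0.44 and -1.04 (mean -0.74, adjusted p = 0.0100, limma). Hbb-b2 gave -0.12 and -0.86 and was not called (mean -0.49, adjusted p = 0.0702, limma). All 3 had the lower ratio in replicate 2, as had the 5 globin genes above. Among the remaining globin genes, cytoglobin (Cygb, a globin of fibroblast-like cells) fell by 0.71 on the log2 scale (adjusted p = 0.00324, limma), with log2 ratios of -0.81 and -0.61. The θ-globin genes Hbq1a and Hbq1b, Mb (myoglobin) and Ngb (neuroglobin) lay between -0.17 and 0.14 and were not called. Hbb-bh2 was not well above background and was not tested.

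**Figure D2:**
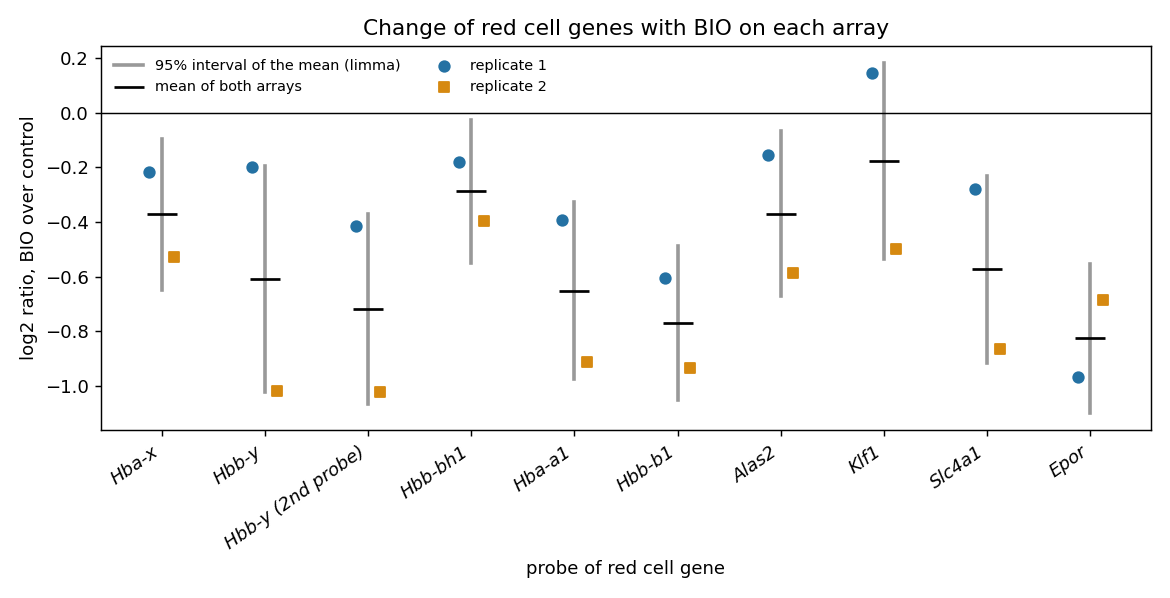
Log2 ratio of BIO over control (vertical axis) of the 10 probes in replicate 1 (circles) and replicate 2 (squares), with the mean (black bar) and the 95% interval of the mean from limma (grey line). Epor lies lower in replicate 1 (-0.97) than in replicate 2 (-0.69), and all others lie lower in replicate 2.

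The contrast between embryonic and later globins was small and was described without a test, because genes are not replicates. It compares genes and not cells, since no value here assigns a globin to red cells of the yolk sac or of the fetal liver. The 3 embryonic genes averaged -0.20 in replicate 1 and -0.65 in replicate 2, and the 2 later genes averaged -0.50 and -0.92. The embryonic genes were thus less decreased by 0.30 and 0.28 on the log2 scale, a mean of 0.29. On both arrays this difference was smaller than the difference between the 2 arrays in either set. It also varied with the pair of genes. Hba-x lay above Hba-a1 by 0.18 and 0.38, and Hbb-bh1 lay above Hbb-b1 by 0.43 and 0.54. Hbb-y minus Hbb-b1 was 0.41 in replicate 1 and -0.08 in replicate 2. Hbb-bh1 minus Hbb-b2 was -0.06 and 0.46. Against Hbb-bt the difference was 0.26 and 0.64 for Hbb-bh1 and 0.24 and 0.02 for Hbb-y. Against Hbb-b2 it was Hbb-y that had the lower ratio on both arrays, by -0.08 and -0.16. Against the later genes Hba-a1 and Hbb-b1, the embryonic gene therefore had the higher ratio on both arrays for Hba-x and Hbb-bh1, while Hbb-y changed sign against Hbb-b1.

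Of the 4 genes outside the globin family, 2 were called. Alas2 encodes the red cell form of the first enzyme of heme synthesis. Its signal was 529 in control and 508 in BIO RNA of replicate 1, and 565 and 392 in replicate 2. The BIO values were the lower ones on each array, with little distance in replicate 1. The ratios were -0.15 and -0.59 on the log2 scale, and the mean of -0.37 ± 0.13 (SE) was not called (adjusted p = 0.0793, limma). Klf1, which encodes the transcription factor that activates adult β-globin, gave 139 in control and 169 in BIO RNA of replicate 1, and 176 and 120 in replicate 2. The groups overlapped and the arrays differed in sign. Log2 ratios of 0.14 and -0.50 gave a mean of -0.18 ± 0.16 (SE, adjusted p = 0.467, limma).

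Slc4a1 encodes band 3, the anion exchanger of the red cell membrane. Its signal was 537 in control and 469 in BIO RNA of replicate 1, and 698 and 387 in replicate 2. Both BIO values lay below both control values. The log2 ratios were -0.28 and -0.87, and the mean of -0.57 ± 0.15 (SE) was called as a decrease (adjusted p = 0.0267, limma). Epor encodes the erythropoietin receptor, which red cell progenitors carry and which endothelial cells are also known to express. Its signal was 1431 in control and 734 in BIO RNA of replicate 1, and 1442 and 920 in replicate 2. The 2 control values nearly coincided and both BIO values were far below them. The log2 ratios were -0.97 and -0.69, with a mean of -0.83 ± 0.12 (SE, adjusted p = 0.00193, limma), which left 56.4% of the control level. Epor was the only one of the 9 genes with the larger decrease in replicate 1.

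The arrays differed in the same sense for most of the 9 genes. Of the 9 genes, 8 had a lower ratio in replicate 2 than in replicate 1, compared with 41.4% of all genes tested, and their medians were -0.22 in replicate 1 and -0.69 in replicate 2. A set of 8 genes used as markers to check for red cells (Alas2, Klf1, Slc4a1, Gata1, Ahsp, Hemgn, Rhag and Epb4.2), of which 3 are among the 9 genes, was lower in replicate 2 for 8 of 8, with medians of -0.15 and -0.55. In the wider red cell lists described below, without the 9 genes, 43 of 74 were lower in replicate 2, with a median difference of -0.03. In heme synthesis it was 6 of 12 genes and in erythropoietin and KIT signaling 4 of 12. All 8 were well above background in at least 1 group on both arrays, and 2 of them fell, Slc4a1 and Ahsp. Their summed processed signal was 17629 in control and 17043 in BIO RNA of replicate 1, and 18868 and 14411 in replicate 2. Most of each sum came from 1 gene, Hemgn, with 15759 and 15307 in replicate 1 and 16216 and 12939 in replicate 2, which was not called. The arrays differed in the pools of ureters and in the orientation of the dyes, and these cannot be told apart. Over all genes tested the median ratio was -0.03 in replicate 1 and 0.00 in replicate 2.

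Markers of endothelial cells and macrophages differed between the arrays in the other sense. The 10 endothelial markers, each read at its brightest probe, fell in 10 of 10 cases, with a median of -2.01 (-2.26 in replicate 1 and -1.47 in replicate 2). Their summed signal was 31523 in control and 6038 in BIO RNA of replicate 1, and 37964 and 11293 in replicate 2. A further probe of 1 of them, Flt1, was not well above background in BIO RNA and was not called (adjusted p = 0.0529, limma). The median ratio of the 9 tested macrophage markers was -0.41 (-0.63 and -0.20), with 4 fallen and 0 risen, and the summed signal of the 10 on the array was 9319 and 6346 in replicate 1 and 10554 and 9168 in replicate 2. None of these 19 markers had a lower ratio in replicate 2 than in replicate 1. The median of the endothelial markers lay below that of the 9 red cell genes on both arrays. Among the 9 only Epor had its lower ratio in replicate 1. Most genes did so too, since 41.4% of all genes tested had the lower ratio in replicate 2. Whether the loss of endothelial RNA has a part in the values of the red cell genes was not tested.

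**Figure D3:**
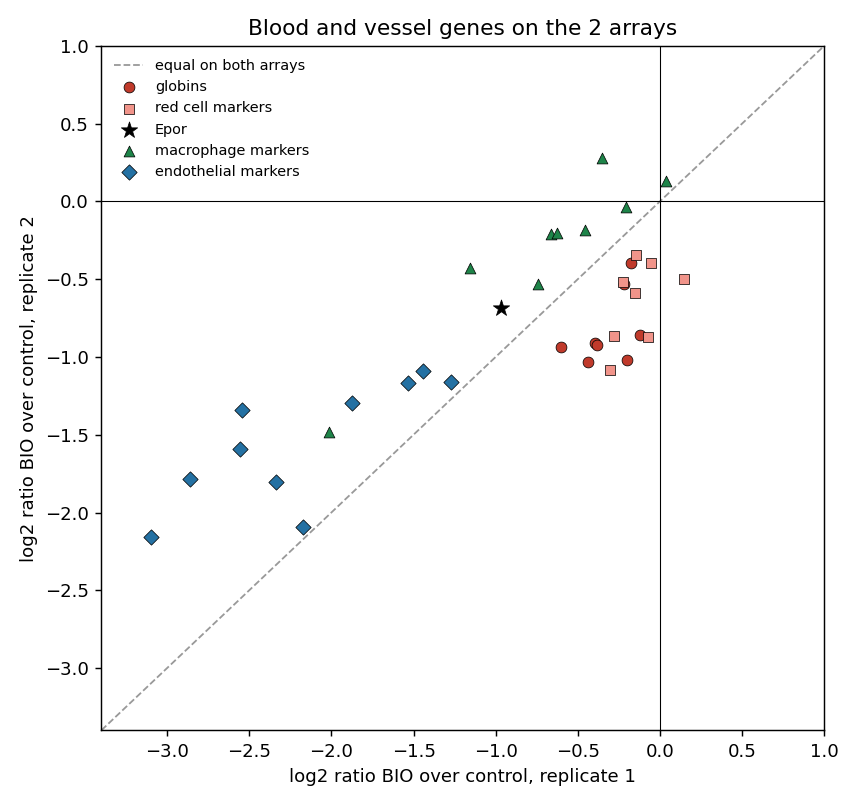
Log2 ratio of BIO over control in replicate 1 (horizontal axis) against replicate 2 (vertical axis) for the globins, the red cell markers, Epor, the macrophage markers and the endothelial markers, 1 point per gene, with a dashed line where both arrays agree. Globins and red cell markers lie below the line, and Epor and the macrophage and endothelial markers lie above it.

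The wider red cell program was read from 9 lists of genes grouped by role, with 83 genes tested of 89 on the array. Of the 83, 25 fell, 5 rose and 53 were not called, against the 14.8% and 9.14% of all genes given above. Without the 9 genes, 20 of 74 fell and 5 rose, and the median of these 74 was -0.20. The 74 include the other globin genes named above. Of those, Hba-a2, Hbb-bt and Cygb fell, and the rest that were tested were not called. Lists were described by their counts, and nothing is claimed to be particular to a list.

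Of 12 genes of heme synthesis, 1 fell and 0 rose, and the median was -0.18. The gene that fell was Slc25a38, a mitochondrial carrier that brings in glycine for heme (-0.42 ± 0.11, SE, adjusted p = 0.0310, limma). Of 12 genes for membrane and skeleton proteins of the red cell, only Slc4a1 fell and 0 rose, and the median was -0.22. Of 10 genes for cytosolic proteins, 3 fell and 1 rose. Those that fell were Bnip3l (-1.14), which removes mitochondria from maturing red cells but is also widely expressed, Ahsp (-0.69), the chaperone of free α-globin, and Trim10 (-0.46). Bpgm, which makes the hemoglobin ligand 2,3-bisphosphoglycerate, rose (0.69, adjusted p = 0.0066, limma).

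Of 14 transcription factor genes of the red cell lineage, 5 fell and 2 rose, with a median of -0.21. The largest decreases were those of Lmo2 (-2.06, adjusted p = 2.27e-04, limma), Tal1 (-1.79) and Cbfa2t3 (-0.83). LMO2 and TAL1 form a complex with GATA1 in red cells and are also used in endothelial cells, whose markers fell as stated above. Lmo2 was 2047 in control and 366 in BIO RNA of replicate 1, and 2483 and 787 in replicate 2. Myb, a factor of immature blood progenitors, rose by 1.55 and Runx1, a factor of blood stem cell formation, by 1.13. Myb gave 279 in control and 825 in BIO RNA of replicate 1, and 266 and 965 in replicate 2, without overlap. Gata1 itself was dim, with signals of 28.0 and 28.5 in replicate 1 and 47.0 and 28.3 in replicate 2, and was not called (-0.23, adjusted p = 0.231, limma).

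Of 10 genes for the uptake and handling of iron, 2 fell and 1 rose. Those that fell were Slc40a1 (-1.40), the iron exporter ferroportin, and Tfr2 (-0.44), a sensor of iron-loaded transferrin. Tfrc, the transferrin receptor through which maturing red cells take up iron but which dividing cells in general also use, rose by 0.40 at its brightest probe, while its other 2 probes gave 0.21 and 0.18 and were not called. In erythropoietin and KIT signaling 7 of 12 genes fell and 1 rose, with a median of -0.49. The largest decreases were those of Kit (-1.48), the receptor of stem cell factor, Socs2 (-0.86), a feedback inhibitor of cytokine receptors, and Kitl (-0.83), which encodes stem cell factor. Kit is also carried by mast cells and by progenitors outside the red cell lineage. Epor belongs to the same list. Fam132b, which encodes the iron regulator erythroferrone, rose by 0.88 at its brighter probe and gave 0.29 at the other, which was not called. The ligand gene Epo was not well above background and was not tested.

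**Figure D4:**
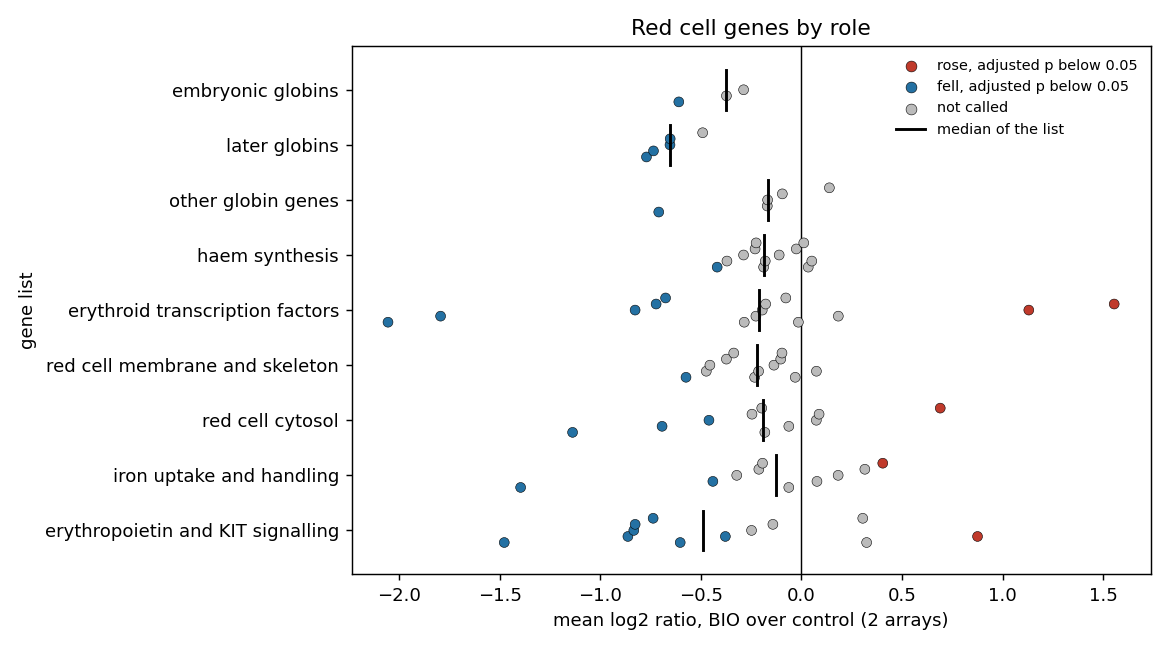
Mean log2 ratio of BIO over control over the 2 arrays (horizontal axis) for the genes of 9 lists of red cell genes, 1 point per tested gene, blue where the gene fell, red where it rose and grey where it was not called, with a black line at the median of each list. The embryonic and later globin lists lie left of 0, and the largest decreases are those of Lmo2 (-2.06) and Tal1 (-1.79).

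The proximal promoters of the genes were set beside these ratios, because the globin and red cell genes are known to be switched on through shared motifs. RefSeq promoters (GRCm38.p6) were at hand for 6 of the 9 genes and not for Hbb-bh1, Hbb-b1 and Slc4a1. The 150 bases before each start are printed 5′ to 3′ in lower case. Capitals mark GATAA or its reverse TTATC (the core that GATA factors bind), CACCC or GGGTG (bound by KLF1 and related factors) and CCAAT or ATTGG.
Hba-x (chr11:32276450-32276599, + strand): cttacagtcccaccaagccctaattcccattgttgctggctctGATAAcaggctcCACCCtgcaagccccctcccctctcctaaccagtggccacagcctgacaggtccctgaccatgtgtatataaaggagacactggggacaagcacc
Hbb-y (chr7:103853208-103853357, - strand): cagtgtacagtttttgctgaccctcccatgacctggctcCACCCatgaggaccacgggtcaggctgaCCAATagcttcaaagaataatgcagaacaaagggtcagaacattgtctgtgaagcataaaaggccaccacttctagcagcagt
Hba-a1 (chr11:32283522-32283671, + strand): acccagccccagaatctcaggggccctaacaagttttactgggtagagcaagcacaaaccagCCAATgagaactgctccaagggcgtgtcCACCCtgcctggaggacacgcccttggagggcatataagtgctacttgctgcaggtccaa
Alas2 (chrX:150547267-150547416, + strand): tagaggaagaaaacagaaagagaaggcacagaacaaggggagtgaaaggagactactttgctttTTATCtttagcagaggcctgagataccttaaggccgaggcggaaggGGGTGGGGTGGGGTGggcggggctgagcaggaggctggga
Klf1 (chr8:84901832-84901981, + strand): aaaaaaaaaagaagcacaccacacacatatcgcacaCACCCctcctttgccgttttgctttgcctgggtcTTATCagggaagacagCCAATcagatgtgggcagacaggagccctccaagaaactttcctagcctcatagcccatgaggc
Epor (chr9:21963577-21963726, - strand): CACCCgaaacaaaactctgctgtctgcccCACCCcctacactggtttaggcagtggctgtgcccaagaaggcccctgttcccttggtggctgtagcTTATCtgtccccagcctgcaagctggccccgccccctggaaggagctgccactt
All 6 windows held CACCC, compared with 37.4% of 32851 RefSeq promoters over the same window. GATAA was present in Hba-x, Alas2, Klf1 and Epor, against 13.3% of all promoters, and CCAAT was present in Hbb-y, Hba-a1 and Klf1, against 24.5%. Both GATAA and CACCC were present in the 4 genes Hba-x, Alas2, Klf1 and Epor, against 3.99% of all promoters. Of these 4 genes 1 was called as changed, Epor. Of the 2 genes with CACCC and no GATAA, Hbb-y and Hba-a1, both were called. This split belongs to the 150-base window, since in the 250 bases before the start all 6 genes held GATAA, against 22.6% of all promoters. A match of letters is a description and not a site.

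The study selects genes on its other arrays by intensity and fold change alone. Under such a rule, with a processed signal of 100 or more and a 2-fold ratio of equal sign in each replicate, 0 of the 9 genes passed, against 1.54% of all gene names in the lower and 0.679% in the higher direction. At 1.5-fold, Epor alone passed, against 3.75%. Hbb-b1 missed it narrowly in replicate 1, with a log2 ratio of processed signals of -0.58. A gene was read at its brightest probe here too, and the other Hbb-y probe, with -0.68 and -1.01, would have passed at 1.5-fold.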

How the data were processed

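Two-color arrays of 2 replicates were analyzed, with BIO and control RNA on each. The authors used Agilent arrays and, per the file headers and the submitters' processing notes, Feature Extraction 10.7.3.1. The deposited scanner files give mean and background intensities without correction and processed signal intensities after background and dye correction. The authors also deposited a table of 1 score per probe and array whose making is not stated. Compared with the log2 ratios of processed signals, it behaves as a signed fold change, positive where BIO is higher (r = 0.917 and 0.941 over probes), its column median is 1 on both arrays and its centering is unknown. It served as an alternative. The number of arrays limits the precision.

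Ratios were computed and tested with limma 3.58.1 (R 4.3.3). Background was removed from the mean intensities by normexp with an offset of 50, which pulls ratios of dim probes toward 0, and the log2 ratios were normalized by loess within arrays. Control spots and outlier spots (3.49% and 3.16%) were left out, and the 4 spots of a probe were averaged. No spot was saturated. Probes well above background in 1 group on both arrays were tested, 28824 probes of 21598 genes. For the swapped array the sign was turned, and both log2 ratios were tested against 0 with lmFit and eBayes. The two-sided p-values were adjusted by Benjamini-Hochberg. The code was tested on simulated data. The arrays shared 1 slide and 1 scan. A gene was read at its brightest probe, under the name in the files.

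The 9 genes and the lists were chosen with earlier results of these data known. Named genes were the 9, all other globins and up to 3 genes per list and direction with the largest change among those called. Outside this rule, the red cell marker set, taken from a list of cell type markers, was named in full. Epo, Gata1 and the other probes of Fam132b, Tfrc and Flt1 were chosen after their values were seen. A few genes of the lists are not reported here and were left out of their counts.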

Additional observations from a re-analysis of the deposited data

How the results depend on the processing

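Of 63 values of the 9 genes under 7 alternatives, 50 kept their direction and their side of the threshold, 12 lost the call with the same direction, 1 gained it (Hba-x with the mean of all kept probes, adjusted p = 0.0448, limma) and 0 changed sign. The 5 decreases became 3 with median centering (Hbb-y and Hba-a1 lost), 3 with a normexp offset of 16 and 3 with no filter on dim probes (Hbb-y and Slc4a1 lost in both), and 0 with the deposited score table (1 at an unadjusted p below 0.05), under which the red cell lists had 5 fallen and 1 risen genes in place of 25 and 5. With median centering the median of the 9 genes was -0.33 in place of -0.57, Hbb-y was -0.20 and Hba-a1 -0.33. The cause was not tested. The embryonic minus later difference was 0.34 with median centering, 0.27 with the mean of all kept probes and, in alternatives chosen after seeing the data, 0.25 with the other Hbb-y probe, 0.24 with Hba-a2, Hbb-b2 and Hbb-bt added and 0.38 without Hbb-y. Without either replicate it ranged from 0.28 to 0.30, the median of the 9 genes from -0.69 to -0.22, and with 1 array left no calls could be made. At 1.5-fold the intensity and fold-change rule passed 1 gene, and each array alone passed 1 at 2-fold (Epor in replicate 1, Hbb-y in replicate 2). No separate paired analysis was run, because BIO and control RNA of a replicate share an array and every ratio tested is already a paired value.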

Other observations

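Of 7 tested markers of megakaryocytes and platelets, 2 rose and 0 fell. Pf4, a chemokine of platelet granules that some macrophages also make, was 572 in control and 2104 in BIO RNA of replicate 1, and 711 and 3570 in replicate 2. Its log2 ratios were 1.75 and 2.30, with a mean of 2.03 ± 0.14 (SE). Ppbp, the precursor of another platelet chemokine, was dim in control RNA, with 30.1 and 77.2 in replicate 1 and 35.4 and 120 in replicate 2, and rose by 1.02. For both genes the BIO values lay above all control values. The other 5 markers were not called, and the median of the 7 was -0.10, so that the list as a whole did not rise.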
